A study of Mus musculus with 6 samples.

Results

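Translation initiation and elongation factors are the proteins, encoded by the Eif and Eef genes, that bring ribosomes to mRNA and drive them along it. The members described here were the protein-coding genes of the count table whose mouse symbol starts with Eif or Eef, leaving out Eif4enif1, and there were 68 of them among 55487 genes in all. They were put into 5 groups: 10 genes named Eif1, Eif5 or Eif6 with a suffix or none, 15 of Eif2, 14 of Eif3, 15 of Eif4 including the 4E-binding proteins (4E-BPs), and 14 of Eef. Of the 12 other genes whose symbol starts the same way, 10 are annotated as pseudogenes and were left out for that reason.

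In initiation, eIF2 delivers the initiator tRNA to the small ribosomal subunit, eIF1 and eIF1A keep that subunit open for scanning, eIF3 is the scaffold on which they meet, and eIF4E, eIF4G and eIF4A bring it to the capped end of the mRNA. The 4E-BPs compete with eIF4G for eIF4E, eIF2B recharges eIF2 with GTP, and kinases that phosphorylate eIF2 block that recharging. In elongation, eEF1A delivers aminoacyl-tRNA, the eEF1B subunits recharge it, and eEF2 moves the ribosome by a codon. DDX6, the protein depleted in this design, is an RNA helicase that acts in translational repression and mRNA decay, downstream of microRNAs among other inputs.

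PolyA RNA was sequenced from D6AdP cells, a mouse embryonic stem (ES) cell line with an auxin-inducible degron and mCherry on both Ddx6 alleles, EGFP on 1 Dcp1a allele and an OsTIR1-FLAG transgene, and all groups share this genotype and the feeder fibroblasts under the ES cells. The groups had 0, 3 or 6 h of 500 nM 5-Ph-IAA, an auxin analog, with 2 libraries each and 6 in all. No group was kept without the analog for 3 or 6 h, so the analog, hours in culture and DDX6 loss cannot be told apart here. The labels do not name separate cultures for the libraries, and p-values measure only the spread between them.

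Library totals ran from 16357142 to 21846959 counts. The summed level of the 10 ES markers was 4733 to 5256 CPM (counts scaled to library size) over the libraries, and that of the 15 feeder markers was 17699 to 19986 CPM, with none of either list at 0. Foxa2 and Sox17, among the 6 endoderm markers, were under the filter on low counts, and that list summed to 58.7 to 69.0 CPM. Feeder markers were called neither higher nor lower at 6 h against 0 h (0 of 15 by edgeR, 2 with an unadjusted p under 0.05). Of the 10 ES markers 4 were called higher and 4 lower in that comparison, among them Esrrb with a log2 fold change of -0.42 (edgeR adjusted p = 2.88e-07). The Ddx6 mRNA, whose protein carries the degron, had a mean of 258.7 CPM at 0 h and 252.6 CPM at 6 h (edgeR adjusted p = 0.581), which does not check the depletion.

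The sequences below are shown because DDX6 acts downstream of microRNAs, and the miR-290 and miR-302 families are known for their abundance in ES cells. They are mature microRNAs from RefSeq (GRCm38.p6), written 5′ to 3′, and the capitals mark the seed, bases 2 to 8, which all 5 share.

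miR-291a-3p: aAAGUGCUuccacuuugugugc

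miR-294-3p: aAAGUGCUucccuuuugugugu

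miR-295-3p: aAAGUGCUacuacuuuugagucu

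miR-302b-3p: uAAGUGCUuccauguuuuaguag

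miR-302d-3p: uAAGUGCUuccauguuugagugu

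The match to that seed, AGCACTT, was found in the 3′ UTR of 9 of the 65 tested members (13.85%), against 15.33% of the 13688 tested coding genes with a full coding transcript in GENCODE M21. The 9 were Eef2k, Eif2ak2, Eif2b1, Eif2s2, Eif2s3x, Eif4b, Eif4e, Eif4g2 and Eif5a2. For each gene the transcript with the longest coding sequence was used, and those of Eif4a2 and Eif4g3 had no annotated 3′ UTR. These transcripts were 1227 and 5289 nt long, where all exons of the genes covered 5338 and 11063 nt. Their other transcripts were not searched, and both genes were counted as without a site. The lines below give 30 bases of the mRNA around the site in 4 of them, the 3 that were called in any comparison and Eif4g2, the most abundant Eif4 gene by CPM, with the site in capitals. The 7 bases lie at chr2:154871993-154871999 on the minus strand for Eif2s2, chr15:102096091-102096097 on the plus strand for Eif4b, chr3:138557732-138557738 on the plus strand for Eif4e and chr7:111068459-111068465 on the minus strand for Eif4g2 (GRCm38).

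Eif2s2 site: acagacttcttAGCACTTaggaagcttctc

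Eif4b site: ctggatgaggaAGCACTTaacaggtagtga

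Eif4e site: ttaataactacAGCACTTacataataagtt

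Eif4g2 site: aagaggtttccAGCACTTgtctctctctgc

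At 6 h against 0 h, none of the 9 members with such a site was called higher and 1, Eif4b, was called lower by edgeR, against 2 higher and 15 lower of the 56 members without a site. Of those rises, Eif4g3 was represented by a transcript without an annotated 3′ UTR, so its 3′ UTR was not searched. With upper quartile factors, no scaling factors or the feeder-marker covariate, Eif4g2, which holds a site, was called higher. The median log2 fold change was -0.06 with a site and -0.07 without. Over all genes, calls were more frequent with a site in both directions, at 13.5% higher and 15.7% lower against 10.5% higher and 13.0% lower without one. The length of the 3′ UTR was not matched in any of these comparisons. Its median was 735 nt for the tested members and 955.5 nt for the tested coding genes.

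Levels per length set the order of the members. Eef1a1, which encodes the tRNA-delivering factor eEF1A1, was highest with a mean of 2594 RPKM (CPM per kilobase of exon) over the 6 libraries. Eef2 followed at 1038 RPKM, then Eif5a, a hypusine-carrying factor, at 383 RPKM. Eef1g, an eEF1B subunit, and Eif4a1, the cap-complex helicase, had 375 and 334 RPKM. The members together held 2.75% to 2.88% of each library's counts. At the low end, Eef1a2, Eif4e1b and Eif4ebp3 did not pass the filter on low counts, and 65 members were tested.

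At 3 h against 0 h, edgeR called none of the 65 members, where it called 22 of 15748 genes (0.14%, with 0.0508% higher and 0.0889% lower). DESeq2 and limma voom also called none, and 6 members had an unadjusted edgeR p under 0.05. The log2 fold changes of the members ran from -0.38 to 0.24, with a median of -0.02 against -0.0008 for all genes. All 15 feeder markers were lower in level at 3 h, with a median log2 fold change of -0.12, 11 unadjusted p under 0.05 and no call. With the feeder-marker covariate no member was called and 8 had an unadjusted edgeR p under 0.05. The feeders' part in the members' values was not otherwise tested. The lowest p among the members was that of Eif4ebp2, a repressor of eIF4E, whose log2 fold change was -0.10 ± 0.03 (SE; edgeR adjusted p = 0.254).

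At 6 h against 0 h, 18 of the 65 members (27.7%) were called by edgeR at an adjusted p under 0.05, 16 lower and 2 higher. The scanning factor genes Eif1 and Eif1a had the smallest adjusted p and fell to 0.734 and 0.770 of their 0 h level, and Eif4ebp2 fell to 0.838 of it. Eif4g3, a scaffold of the cap complex, and Eef2kmt, the methyltransferase of eEF2, rose 1.30-fold and 1.31-fold. The other 13 falls ran from -0.32 to -0.09 on the log2 scale.

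The background was 22.3% of all genes called, 10% higher and 12.3% lower. Among the 4576 genes at least as abundant as the upper 75% of the members, 7.8% were called higher and 26.2% lower. Set against those abundant genes, the 16 of 65 members called lower were close to the background. The 65 also hold members below that abundance limit, among them the called Eef1akmt1 at a mean of 14.7 CPM, so the sets differ in abundance. The median log2 fold change was -0.07 for the members, -0.04 for the abundant genes and 0.002 for all genes.

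**Figure D1:**
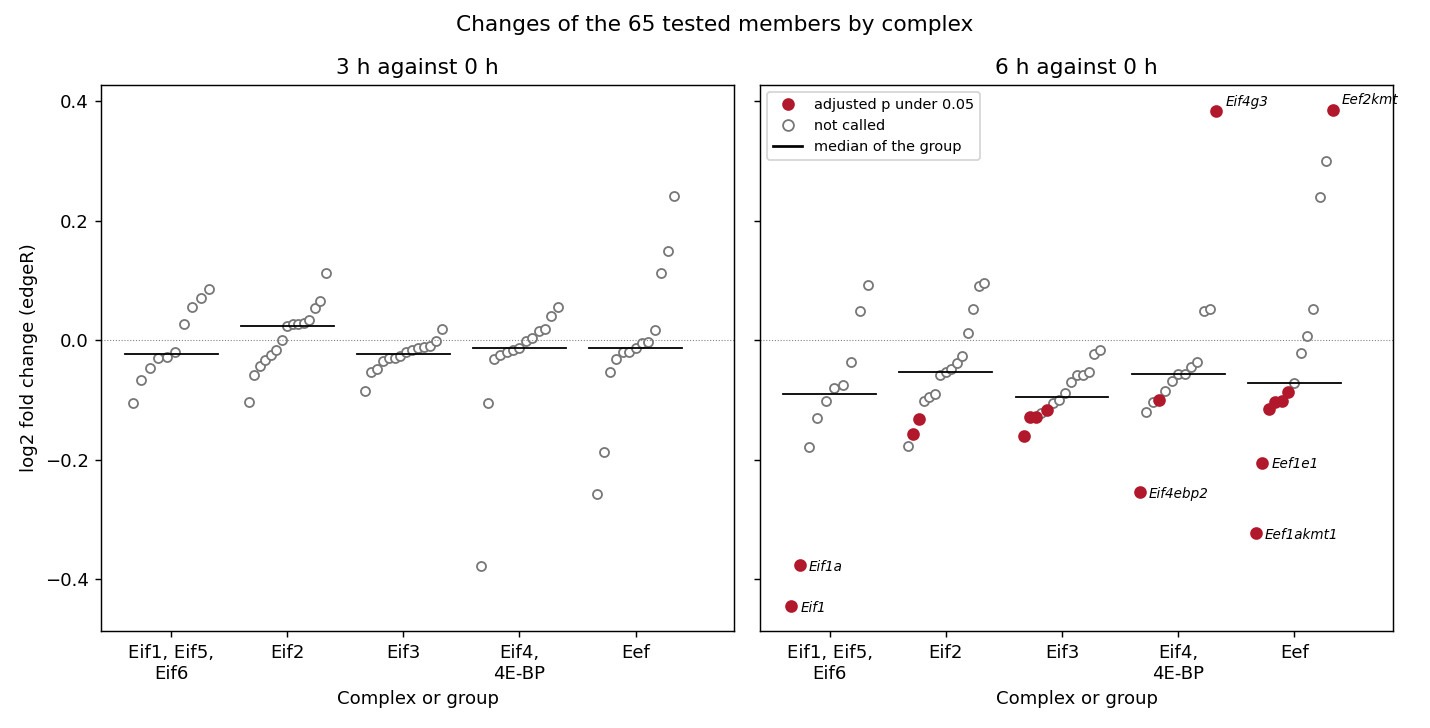
log2 fold change of each tested member at 3 h (left) and 6 h (right) against 0 h, by group, with filled points for an edgeR adjusted p under 0.05 and a line at each group's median. At 3 h no point is filled, and at 6 h 18 are, of which Eif4g3 and Eef2kmt lie above 0.

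Calls at small folds moved with the scaling and with single libraries. With upper quartile factors 8 members were lower and 5 higher, and the share of rises among all called genes went from 44.8% to 57.6%. Leaving out replicate 2 of 0 h or replicate 1 of 6 h gave 11 calls in place of 18. Leaving out any 1 library other than replicate 2 of 6 h gave 8 to 10 falls in place of 16. Across 17 alternative settings, 7 of the 18 calls were made in every one: Eif1, Eif1a, Eif4ebp2, Eif3a, Eif2b5, Eif4g3 and Eef2kmt.

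The group named Eif1, Eif5 or Eif6 held the largest falls. In it 2 of 10 members were called lower, beside 12.3% of all genes and 26.2% of the abundant genes. Eif1, whose protein guards start codon choice (ENSMUSG00000035530, chromosome 11, 100319885 to 100322096, plus strand, GRCm38), measured 332.4 and 321.7 CPM at 0 h, 333.1 and 312.3 CPM at 3 h, and 247.7 and 232.5 CPM at 6 h. Both 6 h libraries were below all 4 others. The log2 fold change at 6 h was -0.45 ± 0.04 (SE, edgeR adjusted p = 9.46e-07), and at 3 h it was -0.02 ± 0.04 (adjusted p = 0.912).

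Eif1a encodes eIF1A, which binds beside eIF1 on the small subunit. It measured 291.3 and 301.6 CPM at 0 h, 286.4 and 294.9 CPM at 3 h, and 225.6 and 230.9 CPM at 6 h. The 6 h libraries again lay below the other 4, with a log2 fold change of -0.38 ± 0.04 (SE, edgeR adjusted p = 1.34e-06). Reads of Eif1a and its close paralog Eif1ax, and of Eif1 and its pseudogenes, may be split by the counting.

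The other 8 members of that group were not called at 6 h against 0 h in the reported fit. Among them Eif5b had a log2 fold change of 0.09 and was called in several alternatives. These were upper quartile factors, no scaling factors, a filter of 1 CPM in 2 libraries, limma voom, the replicate block and the feeder-marker covariate. Eif5a was called with limma voom, the replicate block and the feeder-marker covariate, and Eif1ax with that covariate. Eif1b, the paralog of Eif1, had a log2 fold change of -0.18 (95% interval -0.34 to -0.02, edgeR adjusted p = 0.107), and Eif1ax, the paralog of Eif1a, of -0.10 (-0.20 to -0.005, adjusted p = 0.123). These intervals reach well into negative values, so the paralogs were not shown to stay level. Eif1 made up 90.23% to 91.19% of the summed per-length level of Eif1 and Eif1b at 0 and 3 h, and 88.56% to 89.12% at 6 h. Eif1a made up 77.20% to 79.26% of its pair at 0 and 3 h and 74.61% to 75.02% at 6 h. In both pairs the 6 h shares of the more abundant paralog were below those of the 4 other libraries. Eif5a, the most abundant member of the group by CPM, had a log2 fold change of -0.07 (edgeR adjusted p = 0.084) and Eif5a2, its paralog, of -0.13 (adjusted p = 0.192).

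**Figure D2:**
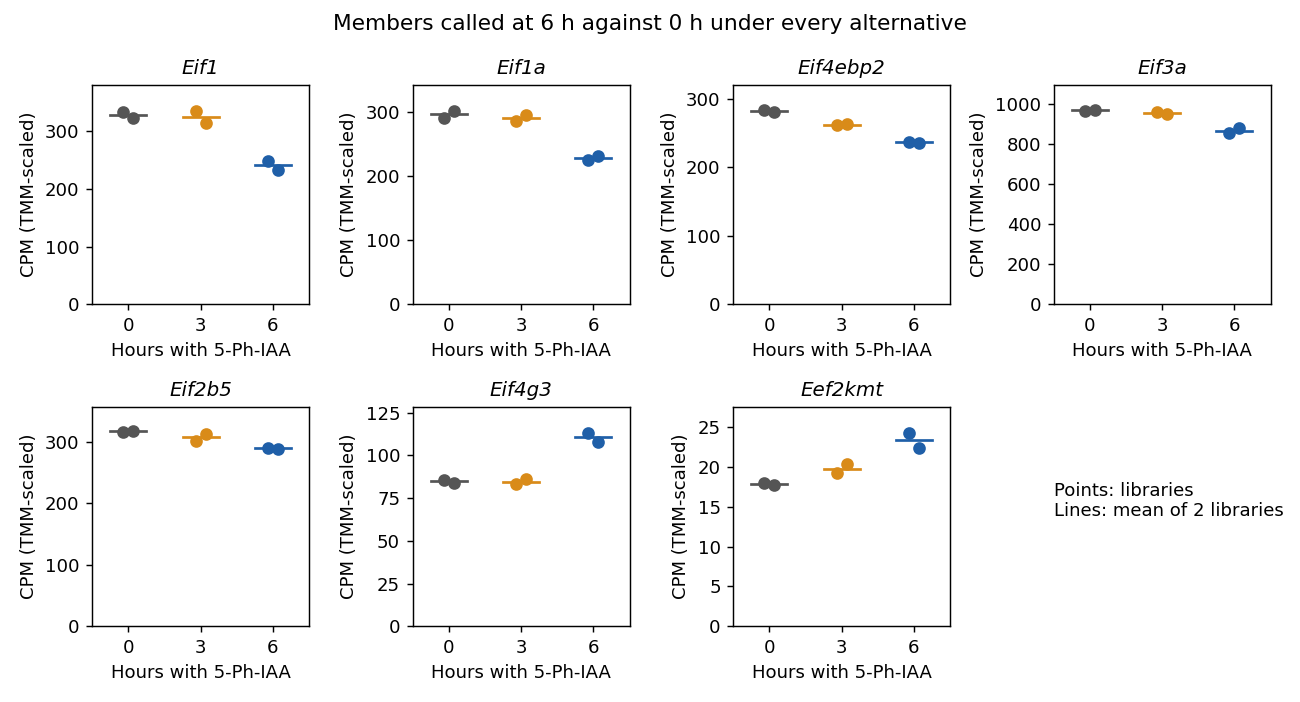
CPM in each library (points) with the mean of the 2 libraries (lines) for the 7 members called at 6 h against 0 h in every alternative; each axis starts at 0. Eif1, Eif1a and Eif4ebp2 lie lower and Eif4g3 and Eef2kmt higher in both 6 h libraries than in any other, and the shifts of Eif3a and Eif2b5 are small beside their level.

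In the Eif4 and 4E-BP group, 1 of 13 tested members rose and 2 fell at 6 h, with a median log2 fold change of -0.06. Eif4g3, also known as eIF4GII (ENSMUSG00000028760, chromosome 4, 137993022 to 138208508, plus strand), measured 85.63 and 83.96 CPM at 0 h, 83.30 and 86.05 CPM at 3 h, and 113.3 and 107.9 CPM at 6 h. Its log2 fold change at 6 h was 0.38 ± 0.04 (SE, edgeR adjusted p = 9.66e-06), where at 3 h it had been -0.002 ± 0.04 (adjusted p = 0.996). The rise was thus seen in both 6 h libraries and in neither 3 h library.

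The other eIF4G genes were not called. Eif4g1, the main scaffold, had a log2 fold change of -0.06 (95% interval -0.12 to 0.003, edgeR adjusted p = 0.166) at 6 h. It was called with the feeder-marker covariate. Eif4g2, which encodes a scaffold that does not bind eIF4E, had one of 0.05 (-0.01 to 0.11, adjusted p = 0.216), a value that was called as a rise with upper quartile factors, without scaling factors and with the feeder-marker covariate. Eif4g3 stayed the minor gene of the set, with 2.31% to 2.37% of its summed per-length level at 0 and 3 h and 2.97% to 3.16% at 6 h.

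Eif4ebp2 (ENSMUSG00000020091, chromosome 10, 61428491 to 61452661, minus strand) measured 283.7 and 280.7 CPM at 0 h, 262.1 and 262.9 CPM at 3 h, and 236.9 and 236.3 CPM at 6 h. The groups did not overlap, with the 3 h libraries between the others. The log2 fold change at 6 h was -0.25 ± 0.03 (SE, edgeR adjusted p = 4.2e-05). Eif4ebp1, its paralog, had -0.12 ± 0.05 and was not called (adjusted p = 0.0689). It was called with the replicate block and with the feeder-marker covariate.

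The remaining fall of that group was in Eif4b, a cofactor of the helicase, with -0.10 (edgeR adjusted p = 0.0284), a call lost in 9 of 17 alternatives. None of the 3 helicase genes was called: Eif4a1 had a log2 fold change of -0.04, Eif4a2 of -0.07 and Eif4a3 of -0.06. The cap-binding genes were not called either, with -0.10 for Eif4e (edgeR adjusted p = 0.0766), -0.09 for Eif4e2 and 0.05 for Eif4e3. Eif4e was called with the replicate block, and Eif4e, Eif4e2 and Eif4a2 with the feeder-marker covariate.

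**Figure D3:**
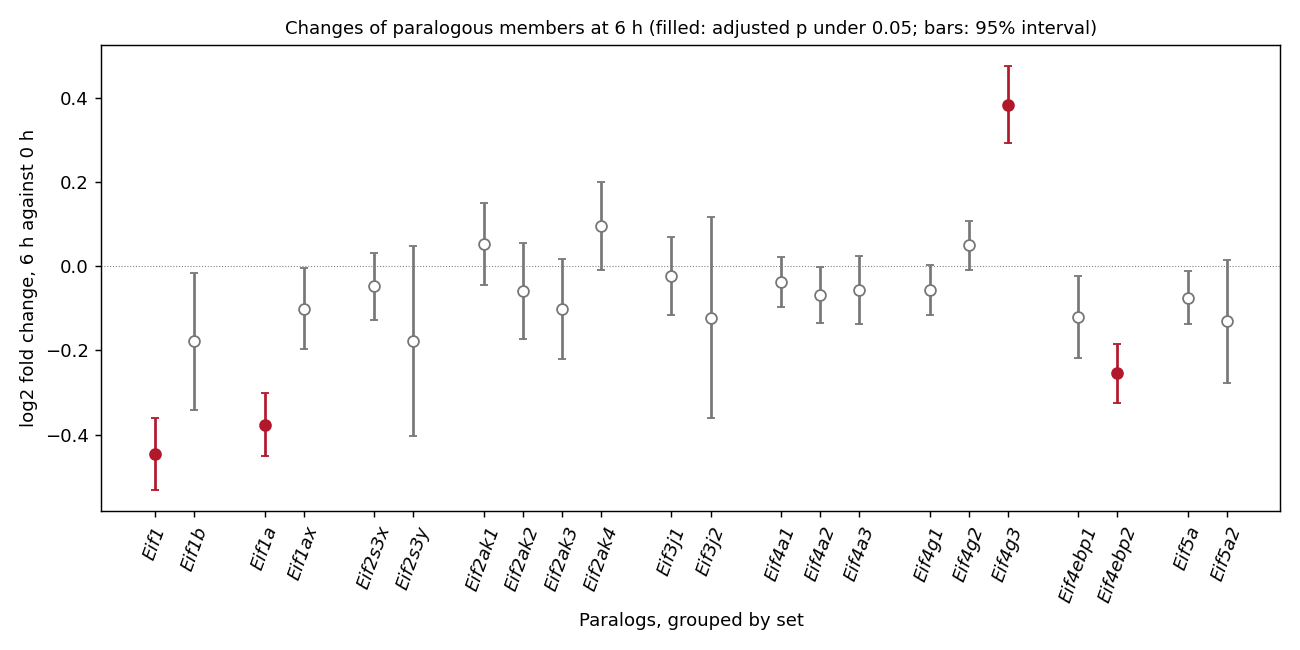
log2 fold change at 6 h against 0 h with its 95% interval for members of 9 paralog sets, filled where the edgeR adjusted p is under 0.05. In the sets of Eif1, Eif1a, Eif4g and Eif4ebp 1 gene is filled and its partners are not.

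In Eif3, which encodes the scaffold complex, all 14 members had a negative log2 fold change at 6 h with TMM and RLE factors and 12 with upper quartile factors or none. With TMM factors, 7809 of all 15748 genes and 3014 of the 4576 abundant genes were also negative. The group's median was -0.09 and 4 members (28.6%) were called lower, beside 12.3% of all genes and 26.2% of the abundant genes. Eif3a, the largest subunit and the most abundant by CPM, measured 964.4 and 970.6 CPM at 0 h, 958.6 and 949.9 CPM at 3 h, and 853.6 and 877.3 CPM at 6 h. The 6 h libraries were below the others, with a log2 fold change of -0.16 ± 0.03 (SE, edgeR adjusted p = 0.000796). The other falls were in Eif3l (-0.12, adjusted p = 0.0155), Eif3f (-0.13, adjusted p = 0.0207) and Eif3k (-0.13, adjusted p = 0.0261). With upper quartile factors Eif3a was the 1 call left in Eif3. Eif3j1 and Eif3j2, a paralog pair, had -0.02 and -0.12 and were not called.

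In Eif2, 2 of 15 members (13.3%) were called lower at 6 h against 0 h and none higher, with a median of -0.05. The shares called lower were 12.3% of all genes and 26.2% of the abundant genes. Eif2b5, the catalytic subunit of eIF2B, measured 316.7 and 317.4 CPM at 0 h, 302.1 and 313.2 CPM at 3 h, and 290.4 and 288.3 CPM at 6 h, with a log2 fold change of -0.13 ± 0.03 at 6 h (SE, edgeR adjusted p = 0.0094). Eif2b4, another eIF2B subunit, had -0.16 (edgeR adjusted p = 0.0399), a call lost in 10 of 17 alternatives. None of the 4 eIF2 subunit genes was called at 6 h against 0 h, with log2 fold changes from -0.18 to -0.03. The lowest of them, Eif2s3y, is the Y-linked paralog of Eif2s3x, which had -0.05. Eif2s2 among the eIF2 subunit genes had -0.09 (adjusted p = 0.0603) and was called with limma voom, the replicate block, the feeder-marker covariate, without 0 h replicate 1 and without 6 h replicate 2. From 3 h to 6 h, 1 of the 4 eIF2 subunit genes and none of the 5 eIF2B genes was called. The genes of the 4 eIF2 kinases were not called, at 0.05 for the heme-regulated kinase Eif2ak1, -0.06 for the RNA-activated Eif2ak2, -0.10 for the endoplasmic reticulum kinase Eif2ak3 and 0.10 for Eif2ak4, the amino acid sensor. The difference between eIF2B and the other Eif2 genes was not tested.

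In Eef, 6 of 13 tested members fell and 1 rose, with a median of -0.07. Of all genes 12.3% were called lower, and of the abundant genes 26.2%. Among the 5 tested core genes the falls were Eef2 (-0.12, edgeR adjusted p = 0.00657), Eef1g (-0.10, adjusted p = 0.0225), Eef1b2 (-0.09, adjusted p = 0.0417) and Eef1d (-0.10, adjusted p = 0.045). Eef1a1 had -0.07 and was not called (adjusted p = 0.0905). With limma voom, the replicate block, the feeder-marker covariate and the legacy edgeR test it was called.

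Eef2 measured 3542 and 3563 CPM at 0 h, 3517 and 3524 CPM at 3 h, and 3206 and 3354 CPM at 6 h. The 6 h libraries were below the others, and the gap between them was wider than in either other group. The Eef2 call was lost in 3 of 17 alternatives: without replicate 2 of 0 h, with the 4 libraries compared and with no scaling factors. The calls of Eef1b2, Eef1d and Eef1g were lost in 10 to 12 of 17 alternatives.

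Eef2kmt (ENSMUSG00000022544, chromosome 16, 5244152 to 5255983, minus strand) measured 17.99 and 17.76 CPM at 0 h, 19.20 and 20.40 CPM at 3 h, and 24.30 and 22.44 CPM at 6 h. Its log2 fold change at 6 h was 0.39 ± 0.07 (SE, edgeR adjusted p = 0.00133). Exons of Alg1 and another gene on the opposite strand cover 22.96% of its exon length, and the strand setting of the counting is not given in the sources used here. Among the other accessory genes, Eef1e1, a subunit of the tRNA synthetase complex, fell by 0.21 (adjusted p = 0.00709) and Eef1akmt1, a lysine methyltransferase of eEF1A, by 0.32 (adjusted p = 0.015). Both of these calls were lost in 4 of 17 alternatives. The eEF2 kinase gene Eef2k had 0.05 and was not called.

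**Figure D4:**
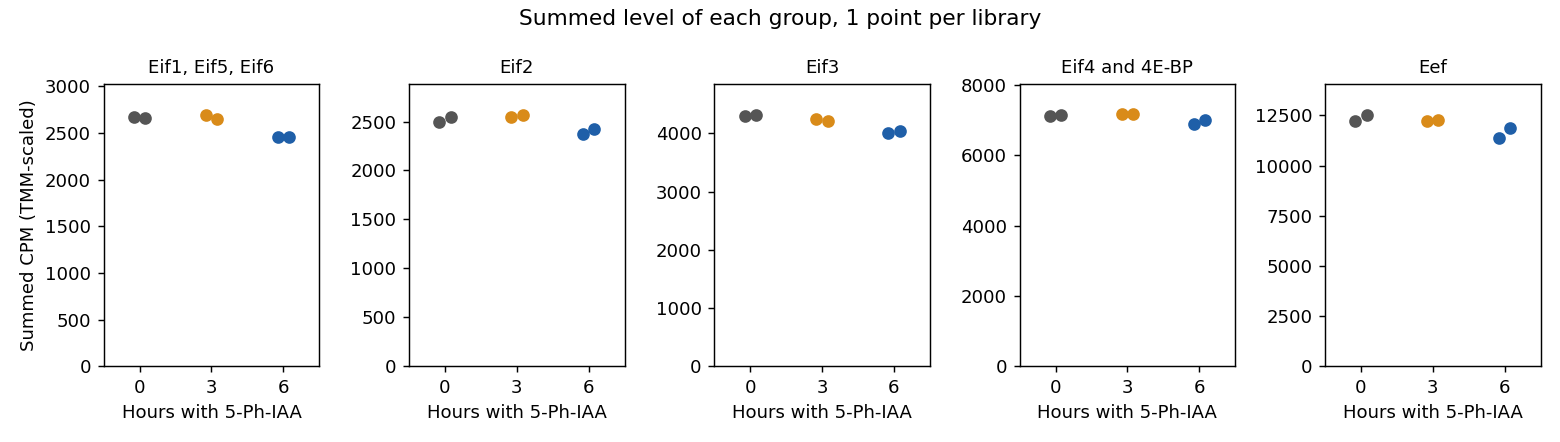
Summed CPM of each group's members in each library, with axes from 0. In all 5 groups both 6 h libraries lie below the 0 h and 3 h libraries, which with upper quartile or no scaling factors does not hold for Eif4 and 4E-BP.

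The groups' sums were lower in both 6 h libraries than in the other 4 under each scaling, except that Eif4 and the 4E-BPs overlapped with upper quartile factors or none. The gap could be narrow: with upper quartile factors the highest 6 h sum of Eef was 12092 CPM and the lowest other 12113 CPM. No such sums were made for other abundant genes, of which 3014 of 4576 had a negative log2 fold change with TMM factors. With TMM factors, Eif3 summed to 4302 and 4317 CPM at 0 h, 4253 and 4210 CPM at 3 h, and 4002 and 4041 CPM at 6 h. Eif2 summed to 2493 and 2548 CPM at 0 h and 2377 and 2420 CPM at 6 h. Eif4 with the 4E-BPs summed to 7102 and 7155 CPM at 0 h and 6888 and 7006 CPM at 6 h. The Eef sum, of which Eef1a1 is the largest part, was 12230 and 12523 CPM at 0 h and 11399 and 11898 CPM at 6 h. The groups' medians at 6 h lay between -0.09 and -0.05, and no test separated one complex from another. With 2 libraries against 2, an exact permutation test of a sum cannot go below 0.333. In bulk RNA, fewer cells of a type and less RNA per cell cannot be told apart.

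Between 3 h and 6 h, the step that tests directly whether the 6 h and 3 h levels differ, edgeR called 12 members, 10 lower and 2 higher, which is 18.5% of those tested. The background was 21.7% of genes, 9.9% higher and 11.8% lower, and 6.88% and 26.6% among the abundant genes. Eif1 (-0.43, edgeR adjusted p = 2.18e-06), Eif1a (-0.35, adjusted p = 4.32e-06) and Eif4g3 (0.39, adjusted p = 1.25e-05) were called here too, in all 17 alternatives. Eif2s2, Eif5, Eif4a2 and Eif4e were called in this step and not against 0 h. Without replicate 1 of 3 h 5 members were called, and without its replicate 2 there were 6.

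Eif2s2, the beta subunit of eIF2, measured 1033 and 1100 CPM at 0 h, 1118 and 1115 CPM at 3 h, and 987 and 1017 CPM at 6 h. Its 3 h libraries were the highest, and its log2 fold change from 3 h to 6 h was -0.16 ± 0.03 (SE, edgeR adjusted p = 0.00314). Eif5, the GTPase activator of eIF2, measured 508.0 and 498.5 CPM at 0 h, 529.6 and 537.9 CPM at 3 h, and 490.5 and 491.0 CPM at 6 h, a step of -0.12 (adjusted p = 0.0101). Both genes were thus higher at 3 h than at 0 h in level, a difference that was not called. Feeder markers moved in this step, with 4 of 15 called higher, a median of 0.10 and a summed level of 17699 to 17966 CPM at 3 h and 17991 to 19881 CPM at 6 h. Of the 10 ES markers 5 were called lower and none higher in the same step, with a median of -0.08. With the feeder level as a covariate 6 members were called in place of 12. Eif1, Eif1a, Eif3a, Eif4ebp2, Eif4g3 and Eif5 kept their calls, and Eif2s2, Eef1e1, Eef2, Eef2kmt, Eif4a2 and Eif4e lost them. The part of the ES marker change in these calls was not tested.

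The genes around the members were counted in 7 lists at 6 h against 0 h, to be read beside the 22.3% of all genes called, 10% higher and 12.3% lower. In the arm that acts on eIF2 phosphorylation 4 of 9 fell and 2 rose. Impact, an inhibitor of the kinase encoded by Eif2ak4, went from 156 to 119 CPM (-0.40, edgeR adjusted p = 7.07e-06), and Ppp1r15b, a targeting subunit of the eIF2 phosphatase, from 185 to 159 CPM (-0.22, adjusted p = 0.000343). Trib3, a target of the stress factor ATF4, rose from 13.3 to 19.5 CPM (0.54, adjusted p = 0.0015). The list's other calls, named after their values were seen, were falls of Atf4 itself (-0.17, edgeR adjusted p = 0.00202) and of Ppp1r15a, the stress-induced phosphatase subunit (-0.24, adjusted p = 0.00691), and a rise of Ddit3 (0.36, adjusted p = 0.0183). Of the 10 mTORC1 genes 1 rose, the inhibitor Ddit4 (0.37, adjusted p = 0.000119), and 2 fell, Tsc1 (-0.26, adjusted p = 0.00151) and Sesn2 (-0.17, adjusted p = 0.00431), both also restrainers of that kinase.

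The 5 other lists had 1 call or none. Of 12 poly(A) and cap regulators Paip1, a partner of the poly(A)-binding protein, fell (-0.27, edgeR adjusted p = 0.00022), and of 9 termination and recycling genes Etf1, the release factor, fell (-0.13, adjusted p = 0.00861). Of 4 scanning helicases Dhx9 fell (-0.11, adjusted p = 0.0121), and of 9 mitochondrial factors Mtif2, their initiation factor, rose (0.28, adjusted p = 0.0012). None of the 9 diphthamide and hypusine genes was called, although 4 had an unadjusted p under 0.05, and the most abundant of them, Dph6, had -0.14 (adjusted p = 0.0969).

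Promoters of the members were compared with those of all genes as a description. RefSeq (GRCm38.p6) gave the 250 bases before each annotated start for 51 of the tested members. The E-box CACGTG, the motif of MYC and related factors, was in 12 of these (23.53%), against 9.81% of 10700 genes. The half-site TGACG on either strand was in 45.10% of the members and 29.56% of the genes, the motif CCGGAAG in 23.53% and 15.03%, GGGCGG in 72.55% and 63.96%, and CCAAT in 29.41% and 40.81%. A gene with several annotated starts, such as Eif5a, counted as holding a motif if any of them did. The number of starts per gene and the abundance were not matched between members and genes.

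The lines below show 40 bases around the E-box, in capitals, for the 3 members with one that were called lower at 6 h, Eef2, Eif3f and Eif3k, and for the uncalled Eif4g1. The E-box starts 43, 68, 44 and 54 bases before the annotated start. The windows are chr10:81176571-81176610 (plus strand), chr7:108934330-108934369 (plus strand), chr7:28981910-28981949 (minus strand) and chr16:20672656-20672695 (plus strand).

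Eef2 E-box: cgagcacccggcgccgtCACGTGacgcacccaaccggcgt

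Eif3f E-box: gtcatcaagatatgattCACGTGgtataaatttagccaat

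Eif3k E-box: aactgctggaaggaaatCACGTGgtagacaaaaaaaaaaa

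Eif4g1 E-box: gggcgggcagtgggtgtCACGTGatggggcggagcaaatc

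Calls were also counted by motif. Of the 12 members with an E-box 3 were called lower at 6 h, and of the 39 without it 9, with medians of -0.09 and -0.07. For CCAAT 7 of 15 members with it and 5 of 36 without it were called lower, and for GGGCGG 7 of 37 and 5 of 14. For TGACG the counts were 6 of 23 and 6 of 28, and for CCGGAAG 2 of 12 and 10 of 39. Over all genes the shares called lower were 13.1% with CCAAT and 13.9% without, and 14.7% with GGGCGG and 11.7% without. For the E-box these shares were 19.2% and 13.0%, for TGACG 16.4% and 12.4%, and for CCGGAAG 15.9% and 13.2%. None of these differences was tested. A match is a description of the letters in these windows and not of a bound site.

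**Figure D5:**
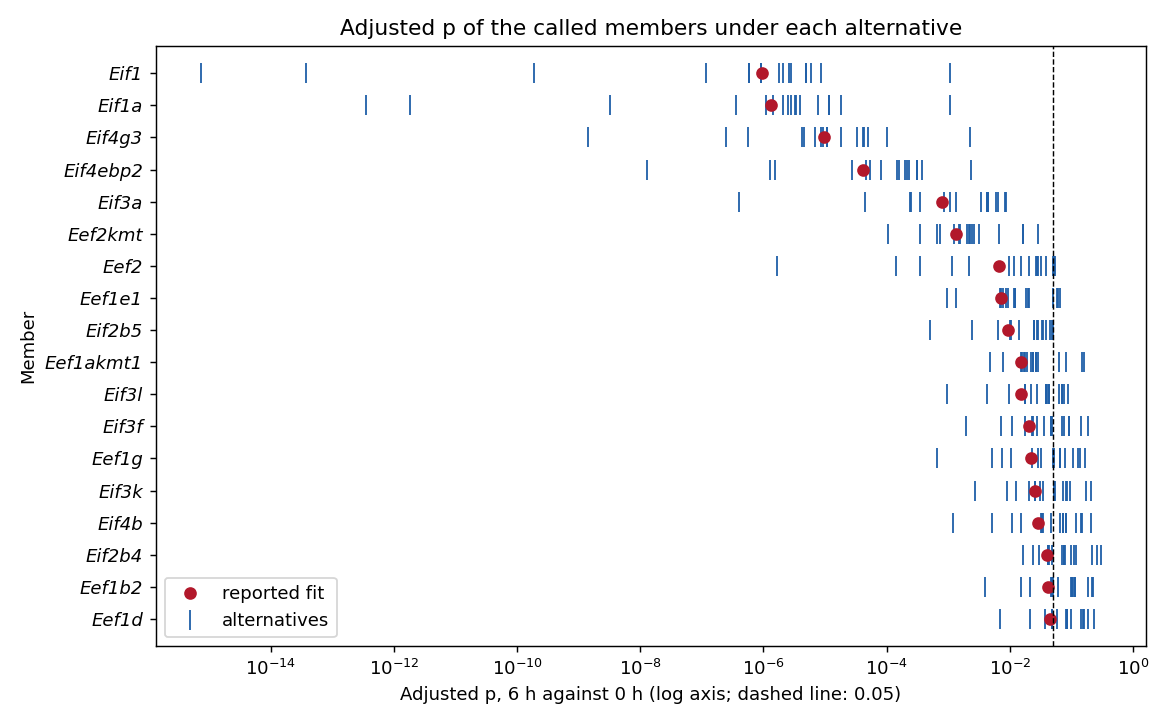
edgeR adjusted p of the 18 members called at 6 h against 0 h (points), with the adjusted p under each alternative (ticks) on a log axis and a dashed line at 0.05. For Eif1, Eif1a, Eif4g3, Eif4ebp2, Eif3a, Eef2kmt and Eif2b5 every tick lies left of the line.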

How the data were processed

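The deposited values are raw read counts for each Ensembl gene in each library. They were made with HISAT2 2.2.1, featureCounts 2.0.3 and fastp 0.22.0 on GRCm38, per the submitters' processing notes. For strand, annotation release and multi-mapped reads the settings are not given in the sources used. Symbols, exon lengths and transcripts came from GENCODE M21 (55227 of 55487 genes had a symbol; the rest held 0.00294% of the counts), and promoters and microRNAs from RefSeq.

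With R 4.3.3, genes were kept by filterByExpr (minimum count 10; 15748 genes), scaled by TMM and tested with edgeR 4.0.16's quasi-likelihood test, 1 fit of 6 libraries, 3 residual and 13.7 prior degrees of freedom, two-sided, with Benjamini-Hochberg adjustment over all genes. An SE is the size of the log2 fold change over the square root of F. CPM are TMM-scaled, RPKM were computed here from union exon length, and 3 counts stood for 0.137 to 0.183 CPM. The test was tried on simulated data with planted changes larger than any of the called members, so the trial does not cover changes of the size reported here. Replicates were checked for duplicates, and their counts differed beyond sampling (chi-square of 1.97 to 6.46 per degree of freedom). Alternatives used DESeq2 1.42.0 and limma 3.58.1.

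Members and lists were chosen with earlier results of these data known. Named genes were the called members, the most abundant member of each group by CPM, the members of the paralog sets, and up to 3 called genes of each other list with the smallest adjusted p, or the most abundant where none was called.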

Additional observations from a re-analysis of the deposited data

Results flagged for a closer look

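The members below were singled out because the change from 0 h differed between 3 h and 6 h by a direct test, edgeR's comparison of 6 h with 3 h, which cancels the shared 0 h libraries. The change at 6 h minus that at 3 h, on the log2 scale, was -0.43 for Eif1, -0.35 for Eif1a, -0.14 for Eif3a, -0.16 for Eif2s2, -0.15 for Eif4ebp2, -0.20 for Eef1e1, -0.12 for Eif5, -0.12 for Eif4a2, -0.10 for Eef2 and -0.12 for Eif4e. It was 0.39 for Eif4g3 and 0.24 for Eef2kmt. The adjusted p ran from 2.18e-06 for Eif1 to 0.0451 for Eif4e. In each of the 12, both libraries of 6 h lay on the named side of both libraries of 3 h. The 12 were chosen by that same comparison, so this was close to fixed in advance and is no further evidence. Groups of 2 libraries were too small to look for a library far from the others.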

How the results depend on the processing

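At 3 h no alternative called a member. No called member changed direction in any alternative. Of the 18 calls at 6 h against 0 h, 7 were made in all 17 alternatives and 11 were lost in at least 1, and of the 12 at 6 h against 3 h the numbers were 3 and 9. Values with no scaling factors and with the legacy edgeR test were chosen after seeing the data.

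For 6 h against 0 h, 18 members were called, 2 higher and 16 lower. Without a filter and with DESeq2 there were 9 calls, 7 lower. With the 4 libraries compared there were 11, 9 of them lower. With the feeder-marker covariate there were 34, 5 higher and 29 lower. Upper quartile factors gave 5 higher and 8 lower, and no scaling factors 5 and 7. For 6 h against 3 h, with 2 higher and 10 lower, the feeder-marker covariate gave 6, 1 higher and 5 lower; upper quartile factors and no scaling factors both gave 6 lower; no filter and DESeq2 both gave 1 higher.

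The correlations of the same numbers' deviations were 0.06, 0.14 and 0.004. Correlations over all genes cannot decide whether the replicate numbers pair the libraries, since a shared effect may lie in some genes only. The replicate block gave 0 member calls at 3 h, 29 at 6 h against 0 h (4 higher, 25 lower) and 20 at 6 h against 3 h (18 lower). Over all genes it called 242 at 3 h against 0 h and 4229 at 6 h against 0 h. The reported fit called 22 and 3517.

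Leaving out 1 library gave 11 to 18 calls at 6 h against 0 h, 8 to 16 lower and 2 to 3 higher, and 5 to 16 calls at 6 h against 3 h, 4 to 14 lower and 1 to 2 higher. The lone library left in a group is assumed to vary like the others.

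The members' median at 6 h against 0 h, -0.07, was -0.041 with upper quartile factors, -0.036 with no scaling factors and -0.081 to -0.057 leaving out 1 library. At 6 h against 3 h, -0.06, it was -0.023 with upper quartile factors, -0.072 with no filter, -0.040 with the feeder-marker covariate, -0.022 with no scaling factors and -0.075 to -0.038 leaving out 1 library. By group at 6 h against 0 h, upper quartile factors and no scaling factors gave -0.041 and -0.036 for Eef, -0.060 and -0.055 for Eif1, Eif5 and Eif6, -0.022 and -0.018 for Eif2, -0.064 and -0.059 for Eif3, and -0.026 and -0.021 for Eif4 and 4E-BP. The Eef median was -0.054 with no filter and -0.048 with DESeq2. Leaving out 1 library gave -0.089 to -0.039 for Eef, -0.11 to -0.075 for Eif1, Eif5 and Eif6, -0.058 to -0.042 for Eif2, -0.090 to -0.070 for Eif3 and -0.088 to -0.036 for Eif4 and 4E-BP. The cause of these moves was not tested. All medians stayed below 0. With 2 libraries a group, changes of under about 10% rest on few degrees of freedom.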
